A study of Rattus norvegicus with 6 samples.

Results

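The 9 genes described here mark the projection neurons of the striatum, which are known as medium spiny neurons. They were chosen by symbol and not by any measured value: Drd1, Pdyn and Tac1 for the direct pathway, Drd2, Adora2a, Penk and Gpr6 for the indirect pathway, and Ppp1r1b and Pde10a for both. They are 9 of 30076 gene symbols in the deposited tables. The choice was made with earlier results of these data known. The study compared 3 untreated with 3 manipulated rats, all of them male F344 rats aged 18 months, with 1 RNA library from each animal. Manipulated rats (replicates 4, 5 and 6) had cranial osteopathic manipulation, in which an osteopathic physician applies gentle force to the skull by hand, over 7 days under isoflurane at 1.5 to 3%. Untreated rats (replicates 1, 2 and 3) had the anaesthesia without the treatment. The tissue is labelled prefrontal cortex and came from a coronal slab 1 mm thick, so each library can hold any cell type in the slab.

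Medium spiny neurons release GABA and form most of the neurons of the striatum. Cells of the direct pathway carry the D1 dopamine receptor, project to the output nuclei of the basal ganglia and also make the peptides dynorphin and substance P. Cells of the indirect pathway carry the D2 dopamine receptor and an adenosine receptor, project to the external pallidum and make enkephalin. In both, the receptors act on cyclic AMP, which PDE10A breaks down and whose kinase phosphorylates DARPP-32, the product of Ppp1r1b. Some cortical neurons also express several of these genes, among them Penk, Tac1 and Pdyn in cortical interneurons.

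All 9 genes were at higher FPKM (fragments per length of transcript, scaled to the mapped fragments of the library) in manipulated replicates 4 and 5 than in every untreated library. The same holds for 4.37% of the 10657 tested genes. Manipulated replicate 6 lay close to the untreated libraries in FPKM as deposited. On that scale it was above all of them for 5 of the 9 genes, and below all of them for Pdyn. The ratio to the untreated mean ran over the 9 genes from 1.54 to 5.21 in replicate 4, from 1.68 to 5.45 in replicate 5 and from 0.730 to 2.00 in replicate 6, as deposited. After the median-ratio scaling, which evens out library scale, replicate 6 was at 1.33 to 3.64 times the untreated mean. In a bulk sample a larger number of such cells and more RNA per cell cannot be told apart.

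**Figure D1:**
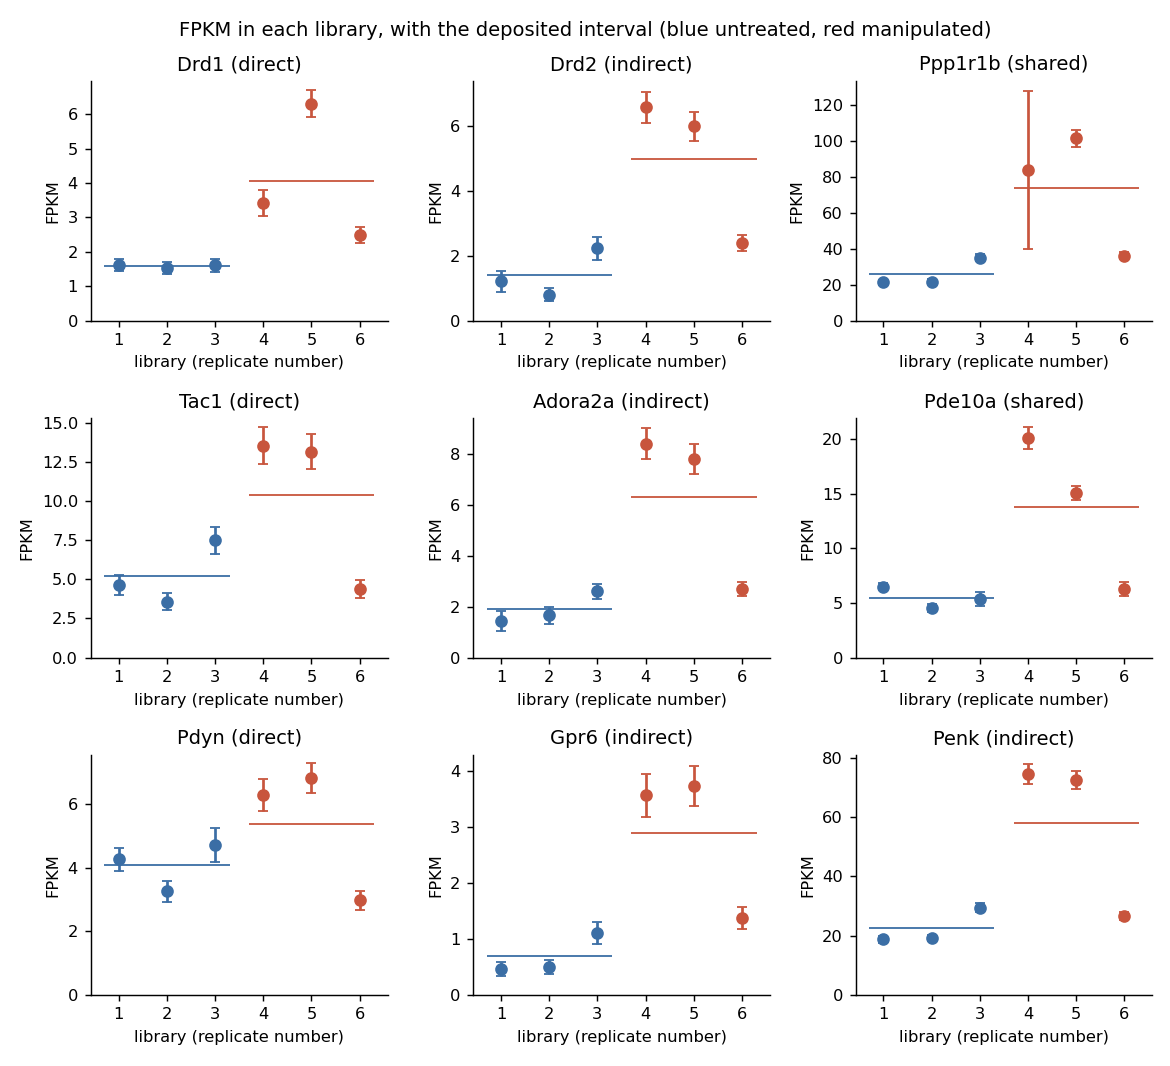
FPKM of each of the 9 genes (y axis, from 0) in each library (x axis, replicate number), untreated in blue and manipulated in red. Vertical bars are the deposited FPKM interval of the library and horizontal lines are group means. Manipulated replicates 4 and 5 are above every untreated library in all 9 panels, and replicate 6 is close to the untreated libraries on this scale.

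The test across genes was limma on log2(FPKM + 1), with p adjusted by the Benjamini-Hochberg method over all tested genes and 0.05 as the threshold. Genes whose mean over the 6 libraries was under 1 FPKM were not tested. Of the 9 genes 8 were tested there, and Penk was left out because its row also names a second gene in manipulated replicate 4. None of the 8 passed the adjusted p, and 6 had an unadjusted p under 0.05. Over all tested genes 0.357% passed the adjusted p, with 0.0845% higher in manipulated rats, and 1.46% were higher with an unadjusted p under 0.05, against 13.6% that were lower with such a p. The groups did not overlap for 5 of the 8 tested genes, against 1.08% of tested genes that were higher without overlap and 23.7% that were lower.

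Library scale bears on these counts. The median log2 fold change of all tested genes was -0.36 as deposited. Median-ratio scaling, which divides each library by a size factor, moved that median by 0.36, to near 0. The size factor of manipulated replicate 6 was 0.651, the lowest of the 6, and the others ran from 0.953 to 1.33. After this scaling all 9 genes had higher values in each manipulated library than in any untreated one, and 8 of 8 tested genes had an unadjusted p under 0.05. Over all tested genes the shares were 10.2% without overlap and 6.51% with such a p, both for higher values in manipulated rats, and 4.76% were lower with such a p. None of the 8 passed the adjusted p after scaling, where 0.0944% of tested genes were higher and passed. The median log2 fold change of the 8 genes was 1.12 as deposited and 1.43 after scaling.

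Among the dopamine receptors, Drd1 encodes the receptor that stimulates cyclic AMP formation in direct pathway neurons. Drd1 (chromosome 17, 11099852 to 11104381 in untreated replicate 1, Rnor_6.0) had 1.62, 1.53 and 1.60 FPKM in untreated animals, against 3.42, 6.31 and 2.48 FPKM in manipulated replicates 4, 5 and 6. The untreated values lay close together, while the manipulated values spread widely and were all higher. The ratio of group means was 2.57 and the log2 fold change was 0.90 (SE 0.28), with a limma adjusted p of 0.309. Drd1 was the only one of the 9 genes whose deposited intervals stayed apart between groups, with 1.79 FPKM as the highest upper bound of the untreated and 2.24 FPKM as the lowest lower bound of the manipulated libraries. That lower bound is from manipulated replicate 6, where the Drd1 row spans 21789 bases, against 4178 to 5055 in the other libraries. The part of this longer row in the value was not tested.

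The Drd1 value of manipulated replicate 4 shares its place with another row. A locus without a gene name, at 3.76 FPKM (deposited interval 3.39 to 4.13), overlaps 3911 bases of the Drd1 row in that library alone. The tables give no strand, so fragments of the gene and of a transcript on the other strand cannot be told apart. With that locus added Drd1 had 7.19 FPKM in replicate 4, and its log2 fold change was 1.20 (SE 0.32) and limma gave an adjusted p of 0.261. Over the other settings that p ran from 0.0517 to 0.633. In untreated replicates 1 and 3 the row of Hrh2, a histamine receptor gene, also covers Drd1, at 0.972 and 0.949 FPKM.

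Drd2 encodes the receptor that inhibits cyclic AMP formation in indirect pathway neurons and is also found on dopamine neurons and cholinergic interneurons. Drd2 (chromosome 8, 53678777 to 53743642, ENSRNOG00000008428) had 1.21, 0.803 and 2.23 FPKM in untreated against 6.58, 5.99 and 2.40 FPKM in manipulated rats. There was no overlap, although untreated replicate 3 and manipulated replicate 6 differed by less than the width of their deposited intervals. The log2 fold change was 1.27 (SE 0.35), with a limma adjusted p of 0.270.

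The FPKM ratio of Drd2 to Drd1 within a library was 0.748, 0.523 and 1.39 in untreated and 1.92, 0.949 and 0.967 in manipulated rats. These ranges overlap. With the unnamed locus added to Drd1, replicate 4 had 0.915, and the 3 manipulated libraries then lay close together, inside the untreated range.

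The promoters of both receptors are shown with those of Gpr6 and Tac1, since these 4 entries differ in the motifs that cyclic AMP responsive factors and general factors are known to bind. The sequences are RefSeq entries of build GRCr8, from 250 bases before to 50 bases after the gene's start, 5′ to 3′ on the gene's strand. Capitals mark matches, on either strand, to the cyclic AMP response element (CRE) TGACGTCA, its short form CGTCA, the TATA box TATAAA and the GC box GGGCGG. Drd1 is from chr17:10546354-10546653 (plus strand), Drd2 from chr8:58605153-58605452 (plus strand), Gpr6 from chr20:46075202-46075501 (minus strand) and Tac1 from chr4:36645333-36645632 (plus strand).
Drd1: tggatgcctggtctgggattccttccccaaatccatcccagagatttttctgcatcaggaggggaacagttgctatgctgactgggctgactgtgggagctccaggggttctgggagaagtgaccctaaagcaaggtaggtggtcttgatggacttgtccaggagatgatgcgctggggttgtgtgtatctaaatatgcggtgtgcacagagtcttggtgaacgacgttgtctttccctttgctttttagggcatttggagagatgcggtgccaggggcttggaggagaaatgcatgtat
Drd2: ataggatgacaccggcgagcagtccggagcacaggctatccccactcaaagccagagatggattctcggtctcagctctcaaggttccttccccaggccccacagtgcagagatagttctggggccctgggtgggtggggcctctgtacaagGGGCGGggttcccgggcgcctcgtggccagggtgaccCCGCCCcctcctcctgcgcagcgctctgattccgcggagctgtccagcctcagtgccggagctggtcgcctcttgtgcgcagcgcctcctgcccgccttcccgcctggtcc
Gpr6: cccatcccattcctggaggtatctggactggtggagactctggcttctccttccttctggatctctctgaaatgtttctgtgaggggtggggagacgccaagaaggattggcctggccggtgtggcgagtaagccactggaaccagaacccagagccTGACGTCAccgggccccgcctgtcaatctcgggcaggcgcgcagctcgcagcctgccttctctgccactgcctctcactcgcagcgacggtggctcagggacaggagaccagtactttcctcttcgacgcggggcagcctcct
Tac1: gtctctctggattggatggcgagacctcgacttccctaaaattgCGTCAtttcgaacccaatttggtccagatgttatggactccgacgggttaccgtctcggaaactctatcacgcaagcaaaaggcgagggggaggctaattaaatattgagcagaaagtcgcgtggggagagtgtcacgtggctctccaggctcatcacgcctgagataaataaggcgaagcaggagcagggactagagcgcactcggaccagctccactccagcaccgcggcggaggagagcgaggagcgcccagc

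The Drd1 entry holds none of the 4 motifs, the Drd2 entry 2 GC boxes, the Gpr6 entry a full CRE and the Tac1 entry the short form. Every full CRE also holds the short form on both strands. Of 33469 promoter entries of this length 1.83% hold the full CRE, 21.2% the short form, 14.2% the TATA box and 33.1% the GC box. Entries were found for 6 of the 9 genes, with 2 for Pde10a, and none was matched for Penk, Adora2a and Ppp1r1b. The full CRE was in 1 of these 7 entries, the short form in 3, the TATA box in 1, that of Pdyn, and the GC box in 3. A match describes letters in this window only.

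Adora2a encodes the adenosine receptor that stimulates cyclic AMP formation in indirect pathway neurons and so opposes the D2 receptor there. Adora2a (chromosome 20, 14265252 to 14282873 in untreated replicate 1) had 1.43, 1.66 and 2.60 FPKM in untreated and 8.39, 7.78 and 2.69 FPKM in manipulated rats. No untreated library reached a manipulated one, by a margin that was small for replicate 6 and wide for replicates 4 and 5. The log2 fold change was 1.23 (SE 0.36), with a limma adjusted p of 0.295.

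Gpr6 encodes an orphan receptor that signals through cyclic AMP and is enriched in indirect pathway neurons. Gpr6 (chromosome 20, 45813169 to 45815940, ENSRNOG00000049580) had the lowest group means of the 9 genes, with 0.458, 0.491 and 1.11 FPKM in untreated and 3.57, 3.74 and 1.37 FPKM in manipulated rats. The groups did not overlap, and the ratio of group means, at 4.22, was the largest of the 9. Its log2 fold change of 1.16 (SE 0.33) is understated by the pseudocount of 1, since the gene is low. The limma adjusted p was 0.270.

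Penk encodes the precursor of the enkephalins, the opioid peptides of indirect pathway neurons. Penk (chromosome 5, 17056419 to 17061837, ENSRNOG00000008943) had 18.8, 19.1 and 29.3 FPKM in untreated and 74.5, 72.4 and 26.5 FPKM in manipulated rats. Replicate 6 was below untreated replicate 3, so the groups overlapped as deposited. The value of 74.5 belongs to a row joined with LOC100912510, a non-coding RNA gene, which had at most 0.115 FPKM in the other libraries. With joined rows kept, the log2 fold change was 1.22 (SE 0.45) and the limma adjusted p over that set of genes 0.356.

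Tac1 encodes the precursor of substance P and neurokinin A, which direct pathway neurons release. Tac1 (chromosome 4, 33638709 to 33646819) had 4.65, 3.57 and 7.48 FPKM in untreated and 13.5, 13.1 and 4.39 FPKM in manipulated rats. Replicate 6 was below untreated replicates 1 and 3, and the groups overlapped. The log2 fold change was 0.78 (SE 0.41), with a limma adjusted p of 0.333 and an unadjusted p of 0.0897.

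Pdyn encodes prodynorphin, the precursor of the dynorphins, which act on the kappa opioid receptor. Pdyn (chromosome 3, 122194329 to 122206671, ENSRNOG00000026036) had 4.26, 3.25 and 4.71 FPKM in untreated and 6.29, 6.84 and 2.97 FPKM in manipulated rats. Replicate 6 was the lowest of all 6 libraries. The ratio of group means was 1.32, the smallest of the 9, and the log2 fold change was 0.28 (SE 0.29, 95% interval -0.38 to 0.94), with a limma adjusted p of 0.529. After median-ratio scaling the log2 fold change was 0.64 (SE 0.15) with an adjusted p of 0.230, and over all other settings that p ran from 0.0943 to 0.837.

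Ppp1r1b encodes DARPP-32, which inhibits protein phosphatase 1 once it is phosphorylated and is abundant in medium spiny neurons of both pathways. Ppp1r1b (chromosome 10, 86303727 to 86312762) had 21.3, 21.7 and 34.9 FPKM in untreated and 83.7, 101 and 36.0 FPKM in manipulated rats. The groups did not overlap, but the deposited interval of replicate 4 was wide, from 39.6 to 128 FPKM, and untreated replicate 3 and manipulated replicate 6 were close. The log2 fold change of 1.38 (SE 0.42) was the largest of the 9 at the pseudocount of 1, with a limma adjusted p of 0.309. With a pseudocount of 0.1 those of Gpr6, Drd2 and Adora2a, at 1.90, 1.73 and 1.56, were above the 1.41 of Ppp1r1b.

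Pde10a encodes a phosphodiesterase that breaks down cyclic AMP and cyclic GMP in medium spiny neurons. Pde10a (chromosome 1, 52355911 to 52805463 in untreated replicate 1) had 6.48, 4.54 and 5.34 FPKM in untreated and 20.1, 15.0 and 6.24 FPKM in manipulated rats. Replicate 6 was below untreated replicate 1, and the groups overlapped. The log2 fold change was 1.07 (SE 0.38), with a limma adjusted p of 0.322. The extent of its row differed between libraries, with 449553 bases in untreated replicate 1 and 239476 in untreated replicate 3, against 188626 to 188691 in the other 4. Unnamed loci inside the row numbered 112, 15 and 87 in untreated and 4, 0 and 29 in manipulated libraries, and their part in the Pde10a values was not tested.

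**Figure D2:**
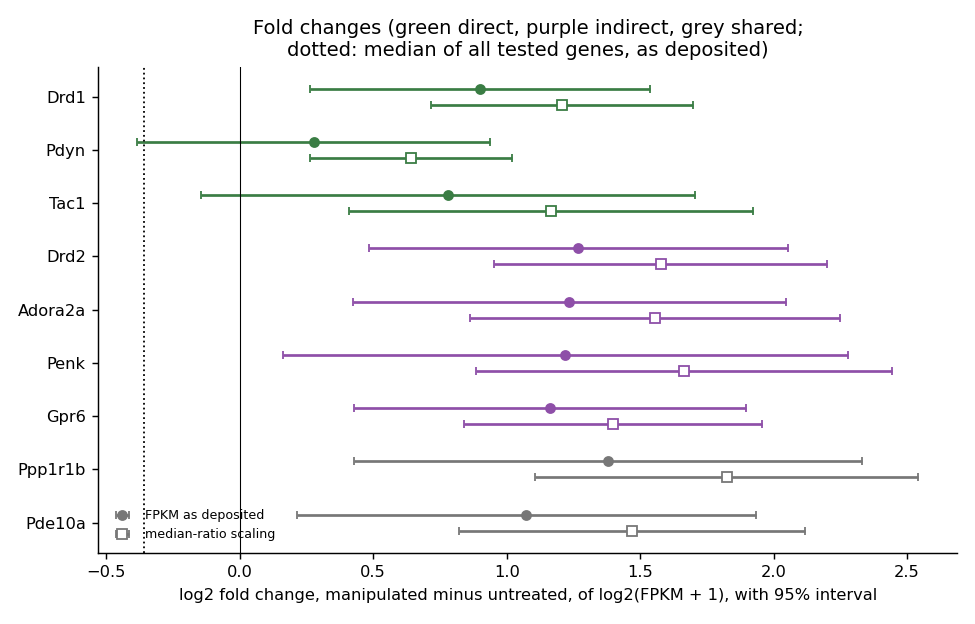
Log2 fold change of each gene (x axis, manipulated minus untreated, on the log2(FPKM + 1) scale) with its 95% interval from limma, as deposited (filled circles) and after median-ratio scaling (open squares), in green for direct, purple for indirect and grey for shared genes. The dotted line is the median of all tested genes. Penk is from the fit that keeps joined rows. The 9 point estimates are above 0 on both scales, and the deposited intervals of Pdyn and Tac1 include 0.

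After median-ratio scaling Ppp1r1b, Drd2 and Gpr6 had the smallest p of the 9, each with a limma adjusted p of 0.121. Their log2 fold changes were 1.82 (SE 0.29), 1.58 (SE 0.25) and 1.40 (SE 0.23). Over the other settings the adjusted p ran from 0.0304 to 0.633 for Ppp1r1b, from 0.0248 to 0.633 for Drd2 and from 0.0262 to 0.633 for Gpr6. Without manipulated replicate 6, as deposited, the log2 fold change of Pde10a was 1.52, of Adora2a 1.67, of Tac1 1.25 and of Pdyn 0.59, and none of the 8 genes passed. With a weight for each library, as limma estimates from how far it lies from its group, 5 of the 8 passed, namely Drd2, Adora2a, Gpr6, Ppp1r1b and Pde10a, with adjusted p from 0.0193 to 0.0304, and 1.27% of tested genes were higher and passed. Replicate 6 then had a weight of 0.234 and replicate 4 one of 6.11. With a robust variance prior Gpr6 alone passed, with an adjusted p of 0.0461, and 0.16% of tested genes were higher and passed.

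The order of levels can be compared between genes because FPKM is scaled by length. In untreated rats Ppp1r1b, at 26.0 ± 7.77 FPKM (SD, n = 3), and Penk, at 22.4 ± 6.01 FPKM, were highest, with overlapping spreads between animals. Within each untreated library Penk was the lower, at 88.0, 88.3 and 84.0% of Ppp1r1b. Pde10a, Tac1 and Pdyn followed with 5.45 ± 0.971, 5.23 ± 2.02 and 4.07 ± 0.744 FPKM, also with overlapping spreads between animals. The FPKM ratio of Tac1 to Pdyn within the untreated libraries was 1.09, 1.10 and 1.59. Adora2a, Drd1 and Drd2, at 1.90 ± 0.621, 1.58 ± 0.0436 and 1.41 ± 0.735 FPKM, overlapped as well, and Gpr6 was lowest at 0.686 ± 0.367 FPKM. In manipulated rats the means ran from 73.7 ± 33.8 FPKM for Ppp1r1b and 57.8 ± 27.1 FPKM for Penk to 2.89 ± 1.32 FPKM for Gpr6. Adora2a, at 6.29 ± 3.13 FPKM, had a higher mean there than Pdyn, at 5.37 ± 2.09 FPKM, and Drd2, at 4.99 ± 2.26 FPKM, a higher mean than Drd1, at 4.07 ± 2.00 FPKM, with overlapping spreads in both cases.

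On the log2(FPKM + 1) scale the indirect genes had larger fold changes than the direct ones. The 4 indirect genes ran from 1.16 to 1.27 and the 3 direct genes from 0.28 to 0.90. By the ratio of group means, which uses no pseudocount, Drd1 at 2.57 was level with Penk at 2.58. Adora2a, Drd2 and Gpr6 were at 3.31, 3.53 and 4.22, and Pdyn and Tac1 at 1.32 and 1.98. The FPKM ratio of Adora2a to Drd1 overlapped between groups, as did that of Drd2 to Drd1. Among the further genes of the 2 pathways, given below, the median log2 fold change was 0.16 for direct and -0.22 for indirect genes. As a measure within each library, the mean log2(FPKM + 1) of the 3 direct genes minus that of the 4 indirect genes was 0.28, 0.08 and -0.06 in untreated and -0.69, -0.37 and -0.35 in manipulated rats. All manipulated libraries were below all untreated ones, replicate 6 included. The difference between group means was -0.57, with a pooled SD between replicates of 0.18. Of the direct genes Drd1 came nearest to the indirect ones. With the unnamed locus added its log2 fold change of 1.20 was above the 1.16 of Gpr6, which the pseudocount understates. The difference of the score with that locus was -0.47. No test was made of this score, since its genes were chosen with results known.

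A like contrast appears in ratios between peptide genes, which do not depend on the scale of a library. The FPKM ratio of Penk to Pdyn was 4.40, 5.88 and 6.24 in untreated and 11.9, 10.6 and 8.92 in manipulated rats. For Penk to Tac1 it was 4.03, 5.36 and 3.92 against 5.51, 5.51 and 6.04. Neither ratio overlapped between groups, and the second came close, with untreated replicate 2 just under manipulated replicate 4. For Tac1 to Pdyn, both direct genes, it was 1.09, 1.10 and 1.59 against 2.15, 1.92 and 1.48, which overlapped. How many other genes rise relative to Pdyn or Tac1 was not tested.

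The ratio of peptide to dopamine receptor mRNA was lower in manipulated rats for 1 peptide gene of each pathway, Pdyn and Penk. The FPKM ratio of Pdyn to Drd1 was 2.64, 2.12 and 2.94 in untreated and 1.84, 1.08 and 1.20 in manipulated rats, without overlap. For Penk to Drd2 it was 15.5, 23.8 and 13.2 against 11.3, 12.1 and 11.1, also without overlap. For Tac1 to Drd1 it was 2.88, 2.32 and 4.67 against 3.96, 2.08 and 1.77, which overlapped through replicate 4 alone. With the unnamed locus added to Drd1, replicate 4 had 1.88 for Tac1 to Drd1 and 0.875 for Pdyn to Drd1, and neither ratio overlapped. Both receptor genes rose themselves, with ratios of group means of 2.57 for Drd1 and 3.53 for Drd2. How many other genes fall relative to these receptors was not tested. Against Ppp1r1b, which rose by a ratio of 2.84, such a fall without overlap was found for 86.7% of the genes tested. A lower ratio to a receptor gene therefore does not by itself set the peptide genes apart. Between the receptor genes of the indirect pathway the ratio of Adora2a to Drd2 was 1.18, 2.07 and 1.17 in untreated and 1.28, 1.30 and 1.12 in manipulated rats, which overlapped.

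Relative to Ppp1r1b, which both pathways share, Pdyn was 20.0, 15.0 and 13.5% in untreated and 7.51, 6.75 and 8.26% in manipulated rats. Tac1 was 21.8, 16.5 and 21.4% against 16.2, 13.0 and 12.2%. These were the 2 of 8 genes that were lower relative to Ppp1r1b without overlap, and 86.7% of tested genes were lower in this way. Gpr6 was the 1 of 8 that was higher without overlap, at 2.15, 2.27 and 3.17% against 4.27, 3.69 and 3.81%, as were 0.122% of tested genes. Penk stayed between 71.5 and 89.0% of Ppp1r1b in all 6 libraries. The other 4 genes, Drd1, Drd2, Adora2a and Pde10a, overlapped between groups in this ratio.

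**Figure D3:**
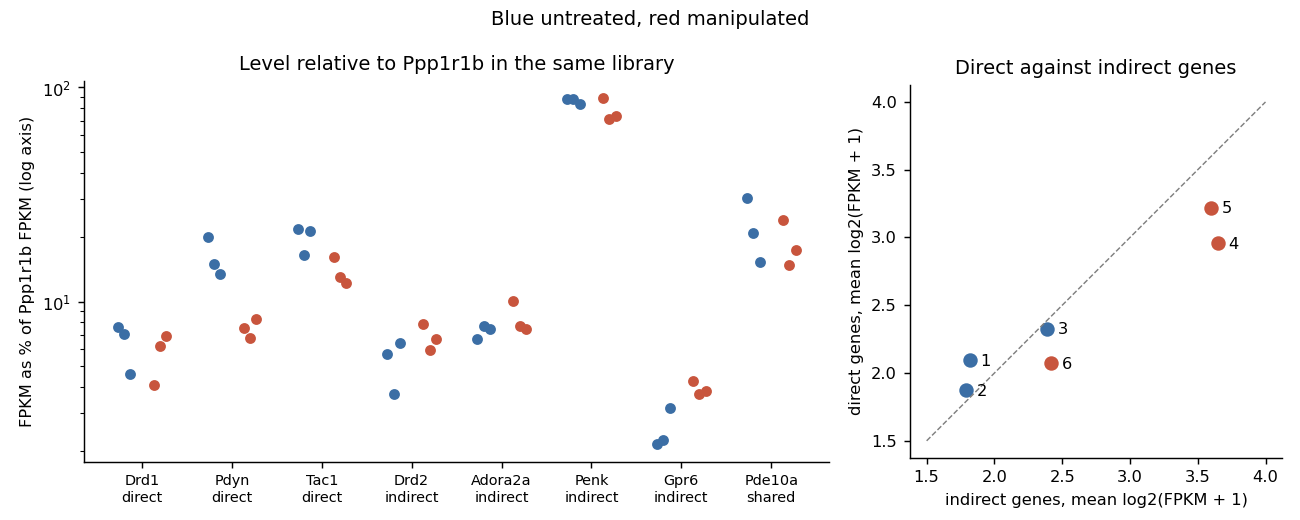
Left, FPKM of 8 genes as a percentage of Ppp1r1b FPKM in the same library (log y axis), untreated in blue and manipulated in red, with 1 point per library. Right, mean log2(FPKM + 1) of the direct genes against that of the indirect genes, with replicate numbers and a dashed line of equality. All 3 manipulated libraries are below the line, where direct minus indirect is -0.35 or lower, and untreated replicate 3 is just below it at -0.06.

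Across the 6 libraries the 9 genes had similar profiles. Pearson's r of log2(FPKM + 1) between 2 of them ran from 0.718 for Drd1 and Pdyn to 0.997 for Adora2a and Penk over 36 pairs. These values are a description over 6 libraries that share the group difference and the library scale. By the same measure, genes among those most like Drd2, other than the 9, were Slc32a1, Fam151a, Rasd2 and Elfn1, with r from 0.977 to 0.982. Slc32a1, the vesicular transporter of GABA, had 13.7, 12.6 and 14.8 FPKM in untreated and 27.3, 26.2 and 16.1 FPKM in manipulated rats.

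The genes most like Drd1 were others, namely Dach1, Syt2, Igfbp4, Rpain and Dcaf4, with r from 0.959 to 0.973. Rpain is among them through manipulated replicates 4 and 5 alone, since it was listed at 0 in the other 4 libraries. In Dach1, a transcription factor gene, manipulated replicate 5 stood out as it did in Drd1, with 0.936, 0.899 and 0.722 FPKM in untreated and 2.36, 6.10 and 1.02 FPKM in manipulated rats. This follows the Drd1 row without the unnamed locus in replicate 4. For the mean of the 8 tested genes the most like included Rasd2, Slc32a1, Elfn1 and Rgs9, with r from 0.976 to 0.993. Rasd2, a small G protein gene of the striatum, had 8.63, 9.07 and 11.8 FPKM in untreated and 27.7, 26.4 and 11.8 FPKM in manipulated rats.

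Other genes of the 2 pathways did not follow as one group. Of 8 further direct pathway genes 7 were tested and none passed limma, with 1 lower at an unadjusted p under 0.05. Their median log2 fold change was 0.16 as deposited and 0.38 after median-ratio scaling, where 3 were higher and 0 lower with such a p. The list is Chrm4, Isl1, Ebf1, Eya1, Sfxn1, Slc35d3, Nxph4 and Tshz1. Sfxn1, a mitochondrial serine transporter gene, had 9.14, 15.3 and 8.33 FPKM in untreated and 5.90, 5.61 and 3.35 FPKM in manipulated rats, and Slc35d3, a transporter gene of direct pathway neurons, 0.620, 0.447 and 0.615 against 1.93, 1.56 and 0.844 FPKM. The groups did not overlap in either gene, in opposite directions, and the limma adjusted p were 0.309 and 0.326.

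Of 8 further indirect pathway genes, namely Sp9, Gpr52, Grik3, Ptprm, Adk, Plxdc1, Ttc12 and Necab1, 6 were tested and none passed limma, with 2 higher at an unadjusted p under 0.05. Their median log2 fold change was -0.22 as deposited and 0.08 after median-ratio scaling, so that its sign depends on the scale. Sp9, a transcription factor gene of indirect pathway neurons, had 0.766, 0.621 and 0.640 FPKM in untreated and 1.92, 2.01 and 1.32 FPKM in manipulated rats, without overlap. Grik3, a kainate receptor subunit gene, had 2.35, 1.95 and 2.67 against 5.35, 4.20 and 2.76 FPKM, also without overlap. Their limma adjusted p were 0.322 and 0.326. Necab1, which encodes a calcium-binding protein, went the other way without overlap, with 9.75, 7.34 and 9.63 against 6.80, 6.75 and 3.33 FPKM and an adjusted p of 0.326. The log2 fold changes of Adk, Ptprm and Plxdc1 were -0.53, -0.43 and -0.02 as deposited, and those of Necab1, Adk and Ptprm were still below 0 after scaling.

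Genes shared by both kinds of neuron were nearer to the 9. Of 25 genes on that list 22 were tested, 18 had a log2 fold change above 0 and 6 of these had an unadjusted p under 0.05, with none past the adjusted p as deposited. The median was 0.44 as deposited and 0.82 after median-ratio scaling, where 1 gene passed and 16 were higher with an unadjusted p under 0.05. The gene that passed was Scn4b, a sodium channel subunit gene, with 5.09, 6.17 and 6.07 FPKM in untreated and 18.6, 17.9 and 12.2 FPKM in manipulated rats. Replicate 6 was also above every untreated library in Scn4b. Rarb, a retinoic acid receptor gene below the filter on mean level and named after its values were seen, was listed at 0 in all untreated libraries and at 2.20, 1.75 and 0.859 FPKM in manipulated ones.

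**Figure D4:**
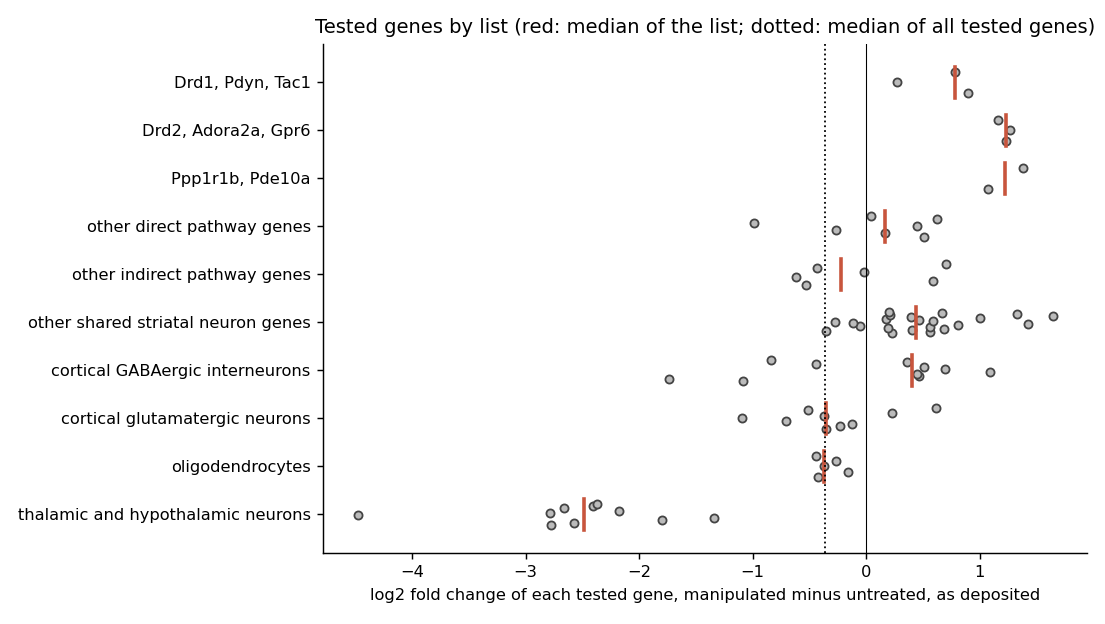
Log2 fold change of each tested gene (x axis, manipulated minus untreated, as deposited) by list, with the median of the list in red and the median of all tested genes, -0.36, as a dotted line. The 3 upper lines hold the 8 tested genes of the report, which are all to the right of 0, and the thalamic and hypothalamic markers are all to the left.

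Genes that act beside the 9 in dopamine, adenosine, opioid and cyclic AMP signalling had no member past the test. None of 5 tested genes of dopamine and adenosine signalling passed limma or had an unadjusted p under 0.05, and their median log2 fold change was -0.43 as deposited and -0.09 after median-ratio scaling, beside -0.36 for all tested genes as deposited. None of 6 tested opioid and tachykinin genes passed, and 1, Pomc, was lower with an unadjusted p under 0.05, as deposited and not after scaling. Of 18 tested genes of cyclic AMP and phosphatase signalling none passed, and 2 were lower with such a p, a share near the 13.6% of all tested genes. After scaling 4 were higher and 2 lower with such a p. The 2 lower genes as deposited were Cdk5, the kinase that phosphorylates DARPP-32 at a site of its own, with 12.6, 13.6 and 17.7 FPKM in untreated and 7.58, 6.78 and 4.90 FPKM in manipulated rats, and Ppp1r1a, a relative of Ppp1r1b, with 14.8, 9.74 and 17.4 against 7.74, 6.64 and 5.53 FPKM. The groups did not overlap in either gene, and their limma adjusted p were 0.215 and 0.299.

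Markers of other cell types were set beside these values. Thalamic and hypothalamic markers went the opposite way, with 7 of 10 lower past the adjusted p of limma, against 0.272% of all tested genes. Their summed level was 149 to 216 FPKM in untreated libraries and 16.6, 17.3 and 80.5 FPKM in manipulated replicates 4, 5 and 6. In replicate 6 most of that sum was Oxt, at 46.5 FPKM and above every untreated library, and Avp, at 23.4 FPKM, which are among the 3 that did not pass. Pmch, one of the 7 that passed, was at 0 in manipulated replicate 6. Of the 10 cortical glutamatergic markers 9 were found and tested, 0 passed limma and 2 were lower with an unadjusted p under 0.05. Their sums were 103 to 156 FPKM in untreated and 74.3 to 117 FPKM in manipulated libraries, and Emx1 was at 0 in untreated replicate 2. Slc17a7, the vesicular glutamate transporter of cortical neurons, had 110, 71.5 and 84.9 against 59.9, 74.4 and 50.8 FPKM, so this marker was present in every library. Which brain regions each library holds was not tested.

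Of 10 cortical GABAergic markers 0 passed, while 2 were higher and 3 lower with an unadjusted p under 0.05. After median-ratio scaling 6 were higher and 2 lower with such a p, and the median log2 fold change was 0.84, beside 0.40 as deposited. Their sums were 264 to 395 and 185 to 257 FPKM. The largest part of the untreated sums was Cck, with 158, 133 and 196 FPKM against 40.0, 48.0 and 55.2 FPKM in manipulated rats. As deposited, 6 of the 10 markers had a log2 fold change above 0, so the sums do not stand for the list. That list holds Gad1 and Gad2, which medium spiny neurons also express. Of the 6 choroid plexus markers 0 passed and 3 were higher with such a p, and their sums were 459 to 467 and 239 to 1237 FPKM. Kcnj13, one of them, was at 0 in all untreated libraries and in manipulated replicate 4. The 6 markers of cholinergic interneurons were all below the filter, with sums of 2.05 to 4.40 and 4.35 to 6.61 FPKM. Among astrocyte, oligodendrocyte, microglia and endothelial markers none of those tested passed limma, and 2 astrocyte markers were lower with an unadjusted p under 0.05. No marker of these lists was at 0 in all 6 libraries, and their part in the values of the 9 genes was not tested.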

How the data were processed

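RNA from 6 prefrontal cortex samples was sequenced, 1 library per animal. The authors deposited FPKM per gene and library with lower and upper bounds. Reads were aligned to Rnor_6.0 with STAR 2.7.3a and assembled with Cufflinks, per the submitters' processing notes. The annotation release, strandedness and read totals were not given in those notes or the labels, so depth is unknown.

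FPKM was summed per symbol. Of 30076 symbols, 3254 were left out because a row also names another gene, 190 for several places, 35 for absence from a library and 7 for failed estimates. The 10657 genes with a mean of at least 1 FPKM were tested with limma 3.58.1 (R 4.3.3, variance trend) on log2(FPKM + 1) with a pseudocount of 1. Penk was fitted with joined rows kept. In simulated data for this comparison, with 10657 genes, 11.8% of genes changed by a log2 fold of 1 and 77% of those changed by 2 were recovered. The simulated noise was independent for each gene and library, and its SD was shuffled between genes. It therefore held no shift shared by the genes of a library, unlike the real data. Other pseudocounts, filters, scalings, weights and left-out libraries were tried.

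The 9 genes, the lists and the rule for genes named (the 5 most like by Pearson's r, and in each list the genes past the adjusted p and up to 3 with the smallest p) were chosen with earlier results of these data known. Further list genes were named after their values were seen. An item that the rule names is not reported here. The labels number the animals 1 to 6, which gives 3 animals a group, with no batch or date. Promoters are RefSeq entries of GRCr8, and none of their coordinates was set against Rnor_6.0. Values were summarised with Python 3.11.15 and pandas 2.3.3.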

Additional observations from a re-analysis of the deposited data

Results flagged for a closer look

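In manipulated replicate 4 a locus without a gene name overlaps the Drd1 row at 3.76 FPKM (deposited interval 3.39 to 4.13), above the 3.42 FPKM of Drd1 itself in that library. It was singled out because it carries signal in rows that the gene-level comparison does not use. No unnamed locus overlaps Drd1 in any other library, untreated or manipulated. It lies on chromosome 17 from 11100879 to 11104789 (Rnor_6.0). The deposited table gives it no strand.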

How the results depend on the processing

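No paired analysis was possible because the labels number the untreated animals 1 to 3 and the manipulated animals 4 to 6. The direction of the log2 fold change was the same for all 9 genes under every alternative run, which included scaling, filter, pseudocount and each left-out library. Over all genes limma called 38 as reported, with 20 when low values were not filtered, 24 with joined rows kept, 84 with a robust variance prior, 940 with a weight per library and 28 to 56 with 1 library left out. Of the 9 genes 5 were called with weights and 1 with the robust prior, and 0 under the other alternatives, each library left out included. The direct minus indirect difference of -0.57 was -0.81 with a pseudocount of 0.1 and -0.86 with 0.01, and ran from -0.65 to -0.46 with 1 library left out. Without manipulated replicate 6 the log2 fold change was 1.25 for Tac1 and 0.59 for Pdyn, which was 0.15 without replicate 4 and 0.10 without replicate 5. Drd1 without replicate 5 was at 0.60. At a minimum mean of 5 FPKM 3 of the 8 genes were tested, and keeping joined rows is already part of the direct minus indirect score. The alternatives chosen after seeing the data were those that add the unnamed locus to Drd1, drop Penk from the score, join median-ratio scaling with joined rows, or join it with leaving out replicate 6. With 3 animals a group, fold changes near a log2 of 1 were seldom recovered in simulated data, which held no shared shift of a library. Depth is unknown.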

Other observations

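The peptide and amine partners of the 9 genes were mostly low. Oprd1, the delta opioid receptor on which enkephalins act, had 0.598, 0.534 and 0.835 FPKM in untreated and 1.19, 1.12 and 1.06 FPKM in manipulated rats, without overlap and below the filter on mean level. Oprk1, the kappa receptor for dynorphin, had 1.49, 0.367 and 0.504 against 0.729, 0.524 and 1.77 FPKM, and Tacr1, the receptor of substance P, 0.960, 0.382 and 0.310 against 1.43, 0.975 and 0.474 FPKM, both with overlap. Th, the rate-limiting enzyme of dopamine synthesis, had 0.358, 0.797 and 1.29 against 0.295, 0.330 and 0.332 FPKM, without overlap and below the filter. Slc18a2, the vesicular monoamine transporter, was listed at 0 in all 6 libraries, and Slc6a3, the dopamine transporter, had at most 0.0539 FPKM. Pomc, the precursor of beta-endorphin, had 0.882, 2.34 and 3.35 FPKM in untreated and 0.272, 0.603 and 0.598 FPKM in manipulated rats. Its groups did not overlap as deposited, with a limma adjusted p of 0.309, and overlapped after median-ratio scaling. Of all tested genes 23.7% were lower and 1.08% higher without overlap as deposited.

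Rgs9, which speeds the turn-off of G protein signals in medium spiny neurons, had 2.78, 1.70 and 2.75 FPKM in untreated and 14.6, 12.7 and 4.49 FPKM in manipulated rats. Replicate 6 was above every untreated library, and the log2 fold change was 1.65 (SE 0.38) with a limma adjusted p of 0.206. Six3, a transcription factor gene that indirect pathway neurons need to form, had 1.61, 3.02 and 2.01 against 4.19, 4.39 and 3.55 FPKM, without overlap and with a limma adjusted p of 0.310. Gnal, the G protein subunit that couples the D1 dopamine receptor and the adenosine receptor of Adora2a to adenylyl cyclase, had 19.1, 12.4 and 22.9 against 25.1, 20.6 and 9.16 FPKM, with overlap.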
